A study of Mus musculus with 9 samples.

Results

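At 567 sites of the mouse genome, trimethylation of histone H3 at lysine 4 (H3K4me3) was listed in wild-type spermatocytes and in spermatocytes of mice homozygous for the EK allele of Prdm9, but not in those homozygous for the EP allele. The sites were selected on overlap alone. Each is an interval of the wild-type H3K4me3 list that touched an EK interval by at least 1 bp, no EP interval, and no wild-type interval that also carried trimethylation at lysine 36 (H3K36me3). The 567 sites made up 4.92% of the 11535 wild-type sites with H3K4me3 alone (H3K4me3-only sites), a share fixed by that rule, out of 18427 wild-type intervals in all. Among the other H3K4me3-only sites, 355 were kept in EP alone, 1890 in both mutants and 8723 in neither. Kept means touched by an interval of that mutant's list. The whole H3K4me3 list held 3307 intervals in EK and 3703 in EP.

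The study used chromatin immunoprecipitation with sequencing on C57BL/6J wild-type mice (PRDM9-WT), on PRDM9-EP/EP mice (strain C57BL/6J-Prdm9<em2Kpgn>/Kpgn, glutamate at residue 360 changed to proline) and on PRDM9-EK/EK mice (strain C57BL/6J-Prdm9<em3Kpgn>/Kpgn, the same residue changed to lysine). The labels call each mutation a severe hypomorph for catalysis. All 9 libraries came from spermatocytes at 14 days of age, with 2 H3K4me3 libraries and 1 H3K36me3 library per genotype, of which 6 were earlier data analysed again. Those 6 include both EP H3K4me3 libraries and 1 of the 2 from EK, so the origin of the libraries and the genotype cannot be told apart. The labels do not say whether the chromatin of several animals was pooled. The values here come from 1 peak list per genotype and kind, with positions and no score, so the spread between replicates and the read depth behind an interval are unknown. An interval missing from the EP list can therefore be a lost mark or a mark below detection, which these lists cannot tell apart. Every list is confined to known PRDM9-dependent sites, so markers of spermatocytes or of other cells could not be checked in them. Intervals given with shares are 95% Wilson intervals and cover sampling of sites only, and each test compares lists of sites, not groups of mice.

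PRDM9 binds DNA through an array of zinc fingers in early meiotic prophase, and its PR/SET domain methylates nearby nucleosomes on lysine 4 and lysine 36 of histone H3. The doubly methylated nucleosomes mark where meiotic double-strand breaks are made in mice. H3K4me3 is also the mark of active promoters, and H3K36me3 also covers the bodies of transcribed genes, where other methyltransferases place it.

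Because the lists are confined to known PRDM9-dependent sites, H3K4me3 at promoters outside them is not counted here. Of the 567 sites, 7 (1.23%, 0.599 to 2.53%) touched the RefSeq promoter window of a gene, taken as the 250 bases before a start site and the 50 from it on. The share was 4 of 355 (1.13%, 0.439 to 2.86%) for sites kept in EP alone, 39 of 1890 (2.06%, 1.51 to 2.81%) for sites kept in both mutants and 66 of 8723 (0.757%, 0.595 to 0.961%) for sites kept in neither. The 7 windows belong to Plin1, Skp2, Ccdc34os, Gm52052, Gm50595, Gm12657 and LOC115487155. They show what lies under the few sites that touch such a window. For Skp2, Gm50595 and Gm12657 the start site itself lay outside the site. The 3 windows with the most bases inside the EK interval are printed here from RefSeq (GRCm38.p6, the build whose chromosome coordinates are those of mm10), 5′ to 3′ on the gene's strand. Capitals mark the bases inside the EK interval. Plin1 encodes perilipin of lipid droplets, Ccdc34os is an antisense transcript by its name, and Gm52052 is a predicted gene.

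The Plin1 window (gene identifier 103968) is on the minus strand at chr7:79732727-79733026, and its site at chr7:79732500-79733508 was 1009 bp wide in wild type and 424 bp in EK, with 197 of the 300 bases inside the EK interval. The Ccdc34os window (75517) is on the minus strand at chr2:110050430-110050729, wholly inside the EK interval of 707 bp at a site of 743 bp. The Gm52052 window (115488171) is on the plus strand at chr13:78290862-78291161, with 233 bases inside the EK interval of 745 bp at a site of 1410 bp.
Plin1: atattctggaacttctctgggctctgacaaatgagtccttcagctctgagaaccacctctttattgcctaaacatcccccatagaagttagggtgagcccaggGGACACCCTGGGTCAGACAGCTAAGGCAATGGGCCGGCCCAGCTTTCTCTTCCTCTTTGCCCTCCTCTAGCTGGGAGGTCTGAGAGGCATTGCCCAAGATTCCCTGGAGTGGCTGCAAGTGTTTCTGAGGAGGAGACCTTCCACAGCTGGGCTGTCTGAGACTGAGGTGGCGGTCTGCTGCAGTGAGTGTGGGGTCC
Ccdc34os: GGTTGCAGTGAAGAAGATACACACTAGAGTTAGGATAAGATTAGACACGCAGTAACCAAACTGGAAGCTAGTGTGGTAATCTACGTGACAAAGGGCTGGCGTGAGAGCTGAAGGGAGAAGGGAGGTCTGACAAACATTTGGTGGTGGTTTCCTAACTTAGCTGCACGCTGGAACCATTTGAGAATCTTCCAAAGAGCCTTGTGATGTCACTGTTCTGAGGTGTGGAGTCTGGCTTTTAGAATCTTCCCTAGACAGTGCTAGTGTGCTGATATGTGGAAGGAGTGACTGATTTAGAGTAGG
Gm52052: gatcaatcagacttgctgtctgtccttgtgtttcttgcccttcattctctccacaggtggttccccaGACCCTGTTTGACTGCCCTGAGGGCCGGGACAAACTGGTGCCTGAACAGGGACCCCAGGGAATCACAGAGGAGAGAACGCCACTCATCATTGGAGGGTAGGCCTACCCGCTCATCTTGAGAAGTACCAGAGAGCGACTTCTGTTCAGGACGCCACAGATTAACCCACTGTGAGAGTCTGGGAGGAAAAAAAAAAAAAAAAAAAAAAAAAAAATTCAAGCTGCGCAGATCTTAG

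CpG dinucleotides were counted in each window. Plin1 had 2, Ccdc34os 4 and Gm52052 6, and the 7 windows ran from 0 (Skp2 and Gm12657) to 8 (LOC115487155), against a median of 7 (interquartile range 3 to 20) over all 32851 windows of the table. None of the 7 held the letters TATAAA on either strand, which 13.6% of all windows hold. The letters CCAAT were in 3 of the 7 (Skp2, Gm52052 and Gm12657) and in 37.4% of all windows. GGGCGG was in Gm50595 alone of the 7 and in 35.7% of all windows. With 7 windows these are descriptions, and the Skp2 and LOC115487155 windows, with 9 and 280 bases in their sites, had none in the EK interval.

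The sites kept in EK alone were narrow in wild type. Their wild-type intervals ran from 119 to 3171 bp with a median of 744 bp (interquartile range 602 to 909 bp), and 438 of them (77.2%) were between 500 and 999 bp wide. Sites kept in both mutants had a similar profile, with a median of 687 bp and 76.1% in the same class. Sites kept in neither mutant had a median of 997 bp. Sites kept in EP alone had a median of 1949 bp, and 168 of the 355 (47.3%) were at least 2000 bp wide, compared with 4 of the 567 (0.705%). Borders come from the lists that chose the sites, so no test was made on width.

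**Figure D1:**
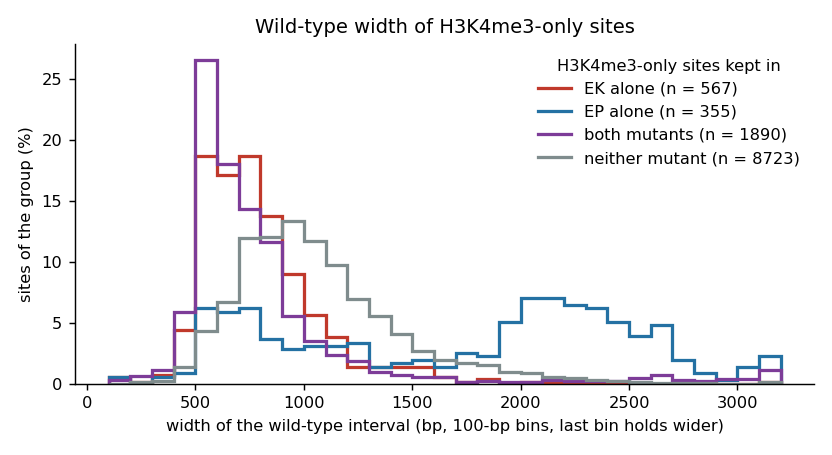
Share of sites (y axis, percent of each group) by width of the wild-type interval (x axis, bp) for H3K4me3-only sites kept in EK alone, EP alone, both mutants or neither. The curve for EK alone lies with that for both mutants below 1000 bp, while that for EP alone has most of its sites at larger widths.

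Among the H3K4me3-only sites that EK kept, the share that EP did not list changed with wild-type width. It was 33 of 184 (17.9%, 13.1 to 24.1%) below 500 bp, 438 of 1877 (23.3%, 21.5 to 25.3%) from 500 to 999 bp and 78 of 255 (30.6%, 25.3 to 36.5%) from 1000 to 1499 bp. From 1500 to 1999 bp it was 14 of 45 (31.1%, 19.5 to 45.7%). At 2000 bp and more it was 4 of 96 (4.17%, 1.63 to 10.2%), so nearly every broad H3K4me3-only site listed in EK was listed in EP too.

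The EK intervals at these sites were mostly either wide or narrow, with fewer of middle width. These are widths of listed intervals, whose borders often coincide between lists, and may not be the widths of the underlying peaks. Their widths ran from 108 to 1261 bp with a median of 610 bp (interquartile range 320 to 743 bp). The most filled 100-bp class was 700 to 799 bp with 113 sites, and the counts dipped to 30 sites at 400 to 499 bp before rising to 64 at 200 to 299 bp and 66 at 100 to 199 bp. At sites kept in both mutants, 45 of 1890 EK intervals (2.38%) were under 200 bp, compared with 66 of 567 (11.6%). Relative to the wild-type interval, the EK interval had a median width of 0.837 (interquartile range 0.438 to 1.00), and 1.00 at the sites kept in both. It was under 50% of the wild-type width at 163 sites (28.7%), against 13.1% of the sites kept in both. It was at least 90% of it at 243 sites (42.9%), against 65.7%. Partial width was more frequent still at sites kept in EP alone, where the EP interval had a median ratio of 0.428. There it was under 50% of the wild-type width at 67.6% of sites and at least 90% at 7.04%. In bp those EP intervals were not narrower than the EK intervals here, with a median of 754 bp against 610 bp. Their wild-type intervals were wider, with a median of 1949 bp. No ratio at the 567 sites kept in EK alone was below 0.200. The lowest in the other kept H3K4me3-only groups was 0.202. The widest wild-type site, at chr9:58985596-58988766 within Neo1 (18007), a netrin and repulsive guidance receptor, had 3171 bp in wild type and 675 bp in EK. The narrowest, at chr10:95413155-95413273 within the span of Socs2 (216233), a suppressor of cytokine signalling, had 119 bp in wild type and 151 bp in EK.

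**Figure D2:**
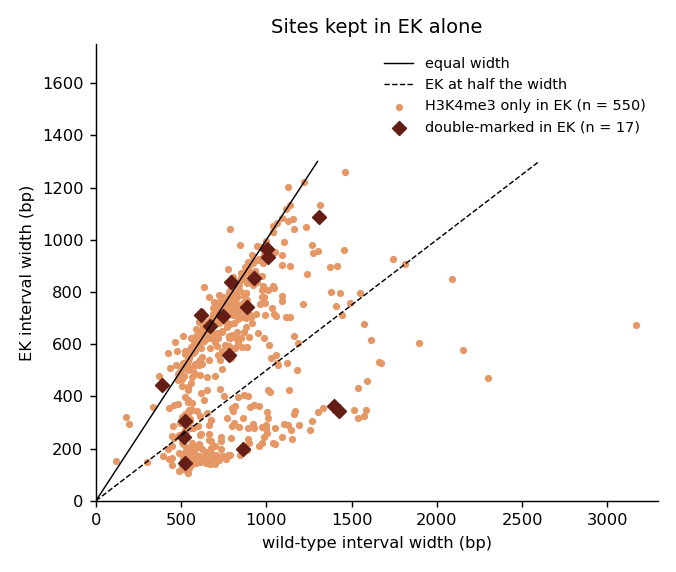
Width of the EK interval (y axis, bp) against that of the wild-type interval (x axis, bp) at the 567 sites kept in EK alone. Points are sites, diamonds the 17 that were double-marked in EK, and the lines mark equal width and an EK interval at 50% of the wild-type width. One cloud follows the line of equal width and 163 sites lie under the lower line.

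Borders were often identical to the base between the lists. At 46 of the 567 sites (8.11%) both borders of the EK interval were those of the wild-type interval, and at 371 (65.4%) exactly 1 of them was, the left in 174 and the right in 197. At sites kept in both mutants these shares were 23.5% and 58.0% for EK. Of the 163 sites with an EK interval under 50% of the wild-type width, 150 shared exactly 1 border, so most narrow EK intervals were listed against an edge of the wild-type interval. At sites kept in both mutants, 176 of 248 such EK intervals and 284 of 347 such EP intervals shared exactly 1 border. At sites kept in EP alone, 59 of 240 such EP intervals did. Over the 567 sites, the median distance between the EK and wild-type midpoints was 71.5 bp, and it was 18.5 bp at sites kept in both. The EK interval lay within the wild-type interval at 390 sites (68.8%). Of the 1134 borders, 204 lay beyond the wild-type border, 95 of them by exactly 18 bp. What set this repeated offset was not tested.

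Most of the sites were far from any EP interval. The gap to the nearest one had a median of 185921 bp and was over 100 kb at 382 of 567 sites, within 5 kb at 21 and within 1 kb at 8. The smallest gaps were 58 bp at chr1:136562419-136563004 near Kif14 (381293), a mitotic kinesin, 60 bp at chr1:4769056-4769591 near Mrpl15 (27395), a mitochondrial ribosomal protein, and 98 bp at chrX:135021780-135022675 near Zmat1 (215693). The smallest overlaps with an EK interval were 3 bp at chr4:98932912-98933447 within Usp1 (230484), a deubiquitinase of DNA repair, 7 bp at the Kif14 site and 17 bp at chr11:85230535-85231931 within Appbp2 (66884). Only 4 sites overlapped by under 100 bp. Just outside the rule, 8 of the 1890 sites kept in both mutants touched the EP interval by under 100 bp. The smallest of these overlaps were 21 bp at chr8:125708296-125708777, 28 bp at chr10:4066347-4067112 within Mthfd1l and 44 bp at chr9:64820694-64820918 within Dennd4a. Requiring no EP interval within 1 kb left 559 sites.

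In EK, 17 of the 567 sites were listed as double-marked, with H3K36me3 beside H3K4me3. None was in the wild-type double-marked list, by the choice of sites. Absence from that list can be a mark below detection. Each list rests on 1 H3K36me3 library, the wild-type one from the earlier data and the EK one not, so a gain in EK cannot be told apart from these. The share double-marked in EK was 3.0% (1.88 to 4.75%), and 3.49% (2.75 to 4.42%, 66 of 1890) at sites kept in both mutants. The difference of -0.494 percentage points (95% Newcombe interval -1.95 to 1.41) did not pass Fisher's exact test (two-sided, p = 0.691). Over all 3262 wild-type intervals kept in EK, those double-marked in wild type included, 7.39% were double-marked in EK. The EK H3K36me3 list was not used to choose the sites. At the 17 sites the wild-type interval ran from 388 to 1426 bp with a median of 795 bp, and the EK interval from 143 to 1089 bp with a median of 668 bp. In 14 of the 17 the double-marked interval had the width of the whole EK interval.

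Of these 17 sites, 16 lay within the span of a protein-coding gene (94.1%, 73.0 to 99.0%), compared with 292 of the 550 sites kept in EK alone that were not double-marked (53.1%, 48.9 to 57.2%). The difference was 41.0 percentage points (95% Newcombe interval 19.5 to 47.4, Fisher's exact test, two-sided, p = 7.01e-04), and this comparison was made after the values had been seen. In the sites kept in both mutants, a set that shares no site with these, 65 of 66 double-marked in EK (98.5%, 91.9 to 99.7%) and 1095 of 1824 others (60.0%, 57.8 to 62.3%) lay within genes, a difference of 38.5 percentage points (31.5 to 41.0, Fisher's exact test, p = 2.59e-13). Sites kept in EK alone and sites kept in both mutants were divided by the same EK double-marked list, from the same library. The second comparison is therefore not independent of the first. Of the 6892 wild-type intervals that were double-marked in wild type, 49.6% (48.4 to 50.8%) lay within genes. The difference of that share from those of the mutants was not tested.

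**Figure D3:**
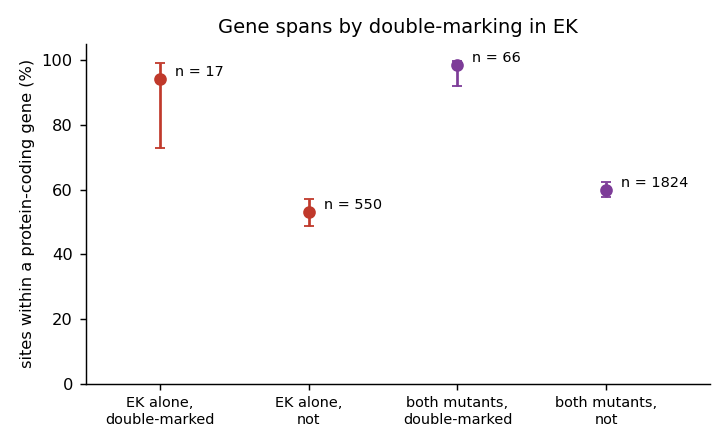
Share of sites within the span of a protein-coding gene (y axis, percent, with 95% Wilson intervals) for H3K4me3-only sites kept in EK alone and in both mutants, divided by double-marking in EK. In both groups the double-marked sites stand above the others, 94.1% against 53.1% and 98.5% against 60.0%.

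The widest double-marked interval of the 17 had 937 bp. It lay within Slk (gene identifier 20874), a serine/threonine kinase, at chr19:47602905-47604213, where the interval was 1309 bp wide in wild type and 1089 bp in EK. The next, of 933 bp, was within Ppp2r2a (71978), a regulatory subunit of protein phosphatase 2A, at chr14:67064313-67065319, and filled the EK interval. The third had 926 bp, within B3gntl1 (210004) at chr11:121666662-121667665. The fourth had 853 bp, within Unc13b (22249), a vesicle priming factor, at chr4:43104535-43105461. The fifth had 839 bp, within Naf1 (234344), an assembly factor of H/ACA ribonucleoproteins, at chr8:66865604-66866398, with an EP interval 1882 bp away. The EK interval at these 5 sites had between 0.832 and 1.06 of the wild-type width, so they belong to the wide class.

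Further double-marked sites lay within Zfp410, Ssbp2, Swt1, Kdm2a, Appbp2, Rab7, Tcp1, Kpna4, Mosmo and Pus10, with double-marked widths from 115 bp (Pus10) to 743 bp (Zfp410). Rab7 is a small GTPase of late endosomes, Tcp1 a subunit of the cytosolic chaperonin and Kpna4 a nuclear import receptor. Kdm2a (225876) encodes a demethylase of lysine 36 of histone H3, and its site at chr19:4393690-4394077 was 388 bp wide in wild type and 443 bp in EK, all of it double-marked. The only double-marked site outside a gene, at chr13:104251455-104252202, was 1832 bp from Cenpk (60411), a kinetochore protein. Only 1 of the 17, the Tcp1 site, was within 1 kb of a gene boundary, that of the neighbouring gene Mrpl18 at 466 bp. Their genes had a median length of 57826 bp, compared with 104156 bp for the genes that held the other 292 sites.

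Of all 567 sites, 308 (54.3%, 50.2 to 58.4%) lay within a protein-coding gene. This did not differ detectably from the sites kept in neither mutant, at 54.7% (53.7 to 55.7%, 4772 of 8723), with a difference of -0.385 percentage points (-4.63 to 3.81, Fisher's exact test, Benjamini-Hochberg over 3 comparisons, adjusted p = 0.862). Sites kept in both mutants had 61.4% (59.2 to 63.5%, 1160 of 1890), a difference of -7.05 percentage points (-11.7 to -2.43, same exact test, adjusted p = 0.00434). Sites kept in EP alone had 82.3% (77.9 to 85.9%, 292 of 355), a difference of -27.9 percentage points (-33.4 to -22.0, same exact test, adjusted p = 3.02e-18). The share was lower than for EP alone on 19 of the 20 chromosomes that held both kinds. The comparison with EP alone depended on width: among wild-type intervals narrower than the list median of 1126 bp, the shares were 53.3% (272 of 510) and 56.0% (61 of 109), which did not differ past the threshold (adjusted p = 0.672, exact test). Among the wider intervals they were 63.2% (50.2 to 74.5%, 36 of 57) and 93.9% (90.2 to 96.3%, 231 of 246), a difference of -30.7 percentage points that passed (exact test, adjusted p = 3.90e-08). The odds ratio stratified by quintile of wild-type width, not planned for gene spans, was 0.783 and did not pass the Mantel-Haenszel test. Against the sites kept in both mutants it was 0.754 with stratification, which passed (Mantel-Haenszel test, adjusted p = 0.0118), and did not pass among the narrow intervals alone (difference -5.48 percentage points, adjusted p = 0.0947, exact test). It passed among the wider intervals, with 36 of 57 against 176 of 217 sites (difference -17.9 percentage points, adjusted p = 0.0105, exact test).

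The 308 intragenic sites fell in 294 genes, counting 1 gene per site, and 11 genes held more than 1 site. Ctnna3 (216033), an alpha catenin gene spanning 1573570 bp of chromosome 10, held 4 of them. Their wild-type widths were 710, 529, 570 and 664 bp and their EK widths 728, 268, 279 and 254 bp, so 1 belonged to the wide class and 3 to the narrow one. Pard3 (93742), a cell polarity gene on chromosome 8, held 3, all in the wide class, with EK widths of 739, 703 and 759 bp. Nrg1 (211323), the neuregulin growth factor gene, held 2, with EK widths of 699 and 157 bp. For the 240 sites in genes whose strand the promoter table gives, the site lay at a median of 39.0% of the gene's length from its start. The 259 sites outside protein-coding genes were at a median of 33332 bp from the nearest one. Exons and introns were not separated here.

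Few of the sites were at the edges of genes. An end of a protein-coding gene, start or finish, was within 1 kb of 28 sites (4.94%, 3.44 to 7.04%). The shares were 7.04% for EP alone, 6.67% for both mutants and 3.26% for neither, and none of the 3 differences passed (adjusted p between 0.119 and 0.193 by Fisher's exact tests). The difference from neither did pass among the narrower intervals (2.18 percentage points, exact test, adjusted p = 0.0190) and when stratified by wild-type width (odds ratio 2.09, Mantel-Haenszel test, adjusted p = 0.00143). Within 5 kb the share was 22.6% (19.3 to 26.2%, 128 of 567), compared with 13.6% of sites kept in neither mutant, a difference of 8.98 percentage points (5.65 to 12.7, exact test, adjusted p = 7.22e-08). Sites kept in both had 28.2%, a difference of -5.63 percentage points (-9.48 to -1.50, exact test, adjusted p = 0.0122), and those kept in EP alone 22.5%. Start sites of the promoter table, a measure added once the data were known, were within 1 kb of 3.53% of the sites, 6.35% of those kept in both and 1.65% of those kept in neither (exact tests, adjusted p = 0.0145 and 0.00798). For boundaries within 5 kb and for start sites, the sites kept in EK alone stood between those kept in both mutants and those kept in neither. The sites kept in EP alone did so too, at 22.5% and 3.38%.

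**Figure D4:**
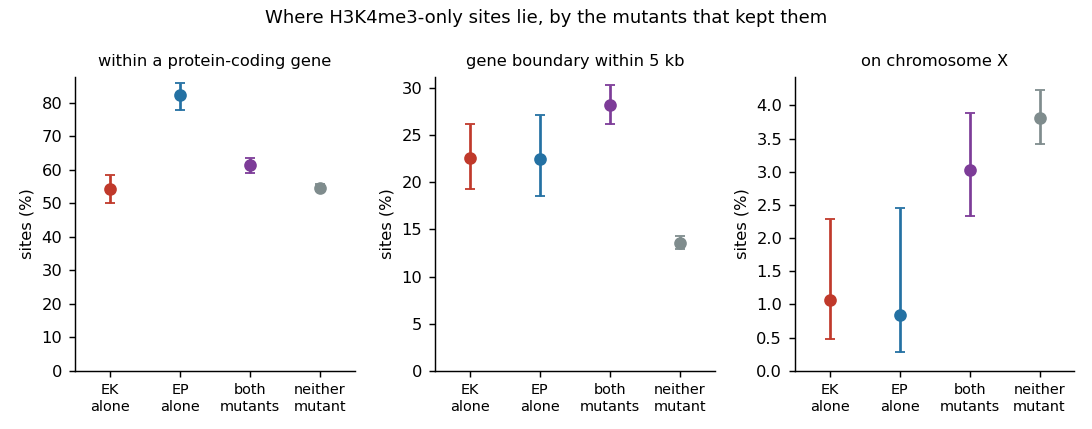
Share of sites (y axes, percent, with 95% Wilson intervals) within a protein-coding gene, with a protein-coding gene boundary within 5 kb, and on chromosome X, for H3K4me3-only sites by the mutants that kept them. Sites kept in EK alone are at 54.3%, 22.6% and 1.06%.

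Among the boundary sites the widest EK interval, of 1080 bp, was at chr14:25601615-25602773 within Zmiz1 (328365), a transcriptional coregulator, though the boundary, 740 bp away, was that of Gm45915 (100188919). At 24 of the 28 boundary sites the boundary was that of the gene named for the site, and at 4 that of another gene. The next had 908 bp at chr11:83420946-83422761, in the span of Rasl10b (276952), a Ras-like protein. The others had 821 bp at chr15:9154404-9155384 in Skp2 (27401), an F-box protein of the cell cycle, 784 bp at chr9:77102399-77103222 in Mlip (69642), and 782 bp at chr1:65071317-65072303 in Crygc (12966), a lens crystallin. None of the 5 was double-marked in EK. Over all sites, the widest EK intervals were 1261 bp in Aco1 (11428), the cytosolic aconitase, at chr4:40152176-40153636, and 1222 bp in Pde6c (110855), a cone phosphodiesterase subunit, at chr19:38158528-38159749. These were followed by 1204 bp in Nek8 (140859), a kinase of the primary cilium, at chr11:78174405-78175529. The remaining pair lay outside genes, 1135 bp at chr8:8460384-8461520, with Efnb2 (13642) as the nearest gene at 155714 bp, and 1134 bp at chr14:56702525-56703838, 5094 bp from Mphosph8 (75339), a reader of methylated histone H3. The Pde6c interval was identical in EK and wild type.

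Genes of meiosis and of histone methylation were counted beside all 21900 protein-coding genes, of which 440 (2.01%) had a site kept in EK alone within 10 kb. These were 7.65% of the 5749 genes with any H3K4me3-only site within that distance. Of 9 genes for PRDM9 and its partners, none had a site kept in EK alone within 10 kb, and 1 had any H3K4me3-only site. Of 21 genes for enzymes that place or remove methyl groups on lysine 4 or 36 of histone H3, 1 did, Kdm2a, and 11 had any H3K4me3-only site. Of 40 genes for meiotic break formation and repair, 37 were matched by symbol and 1 had such a site, with 15 having any. This was Sycp2 (320558), a component of the axial element of meiotic chromosomes, whose site at chr2:178404241-178405779 was 1539 bp wide in wild type and 317 bp in EK and was not double-marked. With 1 gene each, neither list was set apart from the share over all genes.

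Sites kept in EK alone were rare on chromosome X. They numbered 6 there, 1.06% of the 567 (0.486 to 2.29%), compared with 57 of 1890 (3.02%, 2.34 to 3.89%) kept in both mutants and 332 of 8723 (3.81%, 3.42 to 4.23%) kept in neither. The differences were -1.96 percentage points (-3.00 to -0.551, Fisher's exact test, adjusted p = 0.0138) and -2.75 percentage points (-3.46 to -1.46, exact test, adjusted p = 5.32e-04). Against the 3 of 355 kept in EP alone (0.845%, 0.288 to 2.45%) the difference of 0.213 percentage points (-1.50 to 1.56) did not pass (exact test, adjusted p = 1.00). Among intervals narrower than the wild-type median, the differences from both and from neither passed (-2.19 and -2.48 percentage points, exact tests, adjusted p = 0.0100 and 0.00296). Among the wider intervals, with 1 of 57 sites on chromosome X, they were -0.0889 and -2.68 percentage points and did not pass. The 6 sites had wild-type widths from 664 to 1375 bp and EK widths from 291 to 897 bp, and lay in Pdk3 and Hsf3 or near 4933436I01Rik, Fmr1, Zmat1 and Esx1. The Zmat1 and Pdk3 sites had EP intervals 98 and 398 bp away, so 4 remained when no EP interval was allowed within 1 kb.

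The 19 autosomes all held such sites. Among their H3K4me3-only sites, the share kept in EK alone ran from 3.60% on chromosome 5 (2.43 to 5.30%, 24 of 667) to 7.17% on chromosome 8 (5.35 to 9.55%, 42 of 586). Chromosome X was below this range at 1.51% (0.693 to 3.25%, 6 of 398). The sites were scattered, with a median of 1411235 bp to the next site of the same kind and 8 of 567 within 10 kb of another, the closest pair 2656 bp apart.

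**Figure D5:**
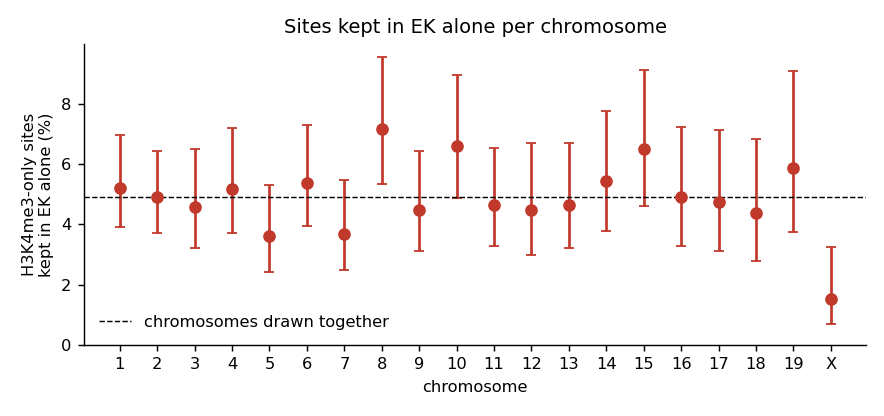
Share of the H3K4me3-only sites of each chromosome that were kept in EK alone (y axis, percent, with 95% Wilson intervals) by chromosome (x axis). The autosomes range from 3.60% to 7.17% and chromosome X is at 1.51%, below the dashed line that marks the share over the chromosomes drawn.

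Position along the chromosome and crowding were compared over all sites, and no difference passed the threshold there. The distal 10 Mb held 40 of the 561 autosomal sites (7.13%, 5.28 to 9.56%), against 9.66% for EP alone, 8.95% for both mutants and 8.21% for neither (exact tests, adjusted p from 0.293 to 0.425). The differences had intervals of -6.52 to 1.08, -4.13 to 0.906 and -3.02 to 1.42 percentage points. The first 10 Mb of the chromosomes held 33 sites (5.82%), beside 4.69% of all H3K4me3-only sites. Another wild-type interval was within 5 kb of 65 sites (11.5%, 9.10 to 14.3%), against 15.8% for EP alone, 12.4% for both and 11.7% for neither (exact tests, adjusted p from 0.213 to 0.946). The difference from EP alone passed among the narrower intervals (-8.68 percentage points, exact test, adjusted p = 0.0459). The nearest neighbour of these 65 was a site kept in neither mutant in 27 cases, a site double-marked in wild type in 21, a site kept in both mutants in 12, another site kept in EK alone in 4 and a site kept in EP alone in 1.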

How the data were processed

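The authors deposited 6 peak lists, each giving the chromosome, start and end of intervals. The deposited readme gives mm10 as the build and says that intervals were listed where detectable at known PRDM9-dependent sites. The submitters' processing notes name Trimmomatic, BWA 0.7.9a and MACS 1.4. The detection threshold is not given in the sources used here.

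Lists were compared with pandas 2.3.3 in Python 3.11.15. Sites and lists were chosen with earlier results of these data known. Differences between shares were tested with Fisher's exact test, two-sided (SciPy 1.17.1), adjusted over 3 groups at 0.05, and stratified with statsmodels 0.14.6. The overlap and test code was tested on simulated data. Genes came from a RefSeq table of GRCm38.p6 (49997 genes, 21900 protein-coding) and start sites from 32851 promoter windows. That promoter table is not complete, so gene boundaries were the main measure.

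Sites were named by rule, at most 5 each: widest double-marked interval in EK, widest EK interval, and widest EK interval near a gene boundary, with at most 3 at each edge of the overlap rule. Further double-marked sites, chromosome X sites, promoter sites, the widest and narrowest sites and genes with several sites were added after their values were seen. GC content was not analysed here, for want of a genome. Not every double-marked site is reported here by name.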

Additional observations from a re-analysis of the deposited data

How the results depend on the processing

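No paired analysis was possible because each genotype has 1 list per kind, and leaving out a replicate was not possible for the same reason. The number of sites kept in EK alone was between 556 and 564 under 5 of the 7 alternatives, 510 among wild-type intervals narrower than the median and 57 among the others. Of 131 alternative values of tested differences, 104 kept their direction and side of the threshold. Differences are in percentage points, EK alone minus the other group, and the causes were not tested.

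Among the narrower intervals, the difference in double-marking from sites kept in both changed sign to 0.235. For boundaries it was 0.119 against EP alone and 2.18 against neither, which then passed (exact test, adjusted p = 0.0190). For gene spans it was -2.63 (EP alone) and -5.48 (both), no longer past the threshold, and 4.15 (neither). For neighbours within 5 kb it was -8.68 against EP alone, which passed (exact test, adjusted p = 0.0459). Among the wider intervals, with 57 sites, the X differences of -0.0889 (both) and -2.68 (neither) did not pass, and the neighbour differences were 5.07 (EP alone), 3.17 (both) and 8.07 (neither).

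The boundary result changed its call or sign under several settings. Against EP alone it was 0.0397 at 5 kb, 0.444 with genes of any biotype and 0.147 with start sites, and the odds ratio stratified by width was 1.26. Against both it was -5.63 at 5 kb and -2.82 with start sites, both past the threshold. Against neither it was 8.98 at 5 kb, 4.39 with any biotype and 1.88 with start sites, with a stratified odds ratio of 2.09, all past it. For gene spans the stratified odds ratio, not planned for this measure, was 0.783 against EP alone, not past the threshold, and 1.18 against neither. The gene-span difference from neither was 2.38 with genes of any biotype. With no EP interval within 1 kb, the X difference from EP alone was -0.130 and the neighbour difference -5.58 (exact test, adjusted p = 0.0405). That setting removed 8 sites kept in EK alone, all with a wild-type neighbour within 5 kb, and no site kept in EP alone, so its shift in neighbours was built in and shows nothing about crowding. The higher intragenic share of sites double-marked in EK held under all 6 alternatives, with differences from 30.5 to 41.3. The planned test of GC content was not run.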

Other observations

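The intragenic position of double-marked sites was also read in the lists as a whole. Of the 243 EK double-marked intervals, 193 lay within a protein-coding gene (79.4%, 95% Wilson interval 73.9 to 84.0%), as did 308 of 412 in EP (74.8%, 70.3 to 78.7%) and 3414 of 6894 in wild type (49.5%, 48.3 to 50.7%). Over all H3K4me3 intervals of the lists the shares were 57.1% in EK, 58.0% in EP and 54.0% in wild type. Of the H3K4me3-only sites kept in both mutants, 67 of the 68 double-marked in EP were within genes (98.5%, 92.1 to 99.7%), beside 1093 of the 1822 that were not double-marked in EP (60.0%, 57.7 to 62.2%). Of those kept in EP alone, 30 of the 33 double-marked in EP were (90.9%, 76.4 to 96.9%), beside 262 of the 322 that were not (81.4%, 76.8 to 85.2%). These differences between lists were not tested.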
